A study of Mus musculus with 18 samples.

Results

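The genes described here are 44 genes of the cell cycle and of DNA replication, measured in mouse bone marrow-derived macrophages (BMDM). They were chosen by symbol, from a list that spans entry into the cycle, S phase and mitosis, and the rule uses no measured value. Earlier results of these data were known when the list was made. All 44 were found among the 18668 gene rows of the table, and all 44 were among the 12838 that reached 0.1 RPKM in 3 or more libraries and were tested. RPKM are reads per unit of gene length, scaled to the total of the library. BMDM arise when marrow is cultured in M-CSF, the growth factor that keeps macrophages and their precursors dividing in culture. The cells came from Apoe-/- mice, which lack apolipoprotein E, or from Apoe-/-/Treml4-/- double-knockout mice (DKO), which lack the receptor Treml4 as well, and both strains had the C57BL6 background. Apoe was thus disrupted in every group, and cells with both genes intact were not part of the comparison. After 7 days of differentiation, cells of either genotype received PBS as vehicle (untreated) or oxLDL, the oxidized form of low-density lipoprotein that loads macrophages of arterial plaques with lipid, at 10 µg/ml (oxLDL 10) or 60 µg/ml (oxLDL 60). The series' design gives an exposure of 16 h, the study's methods give a longer one, and a treatment label names LPS, and these differences could not be resolved. Each of the 6 groups had 3 replicates, described as biological, which makes 18 libraries. The labels give neither age nor sex, and they do not say whether the genotypes were littermates.

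Division in M-CSF follows a fixed order of transcripts. The D cyclins and cyclin E release E2F factors in G1, E2F then turns on the genes that license origins, unwind DNA and make nucleotides, and a later wave driven by the MuvB complex with B-Myb and Foxm1 supplies the cyclins, kinases and motors of mitosis. Cdkn1a (p21) and Cdkn1b (p27) hold cyclin-dependent kinases in check. BMDM are known to divide in M-CSF and to stop dividing on strong activation, with loss of cyclin D1. In RNA from whole cultures, fewer cells in a phase of the cycle and less of an RNA in each such cell cannot be told apart.

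Since many of these genes are known to be read by E2F or through CHR elements, the bases before their start sites are shown for 6 members, 4 with an E2F match and 3 with a CHR match (Cdk1 has both). Upstream windows from RefSeq (build GRCm38.p6, 250 bases before the start site) were matched by symbol for 34 of the 44 members. The members with no entry were Ccnd1, Ccnd2, Ccne2, Foxm1, Gmnn, Mcm4, Ccna2, Aurkb, Kif20a and Tpx2. Each stretch is written 5′ to 3′ on the strand of the gene, without bases that GENCODE M21 annotates as UTR, and capitals mark the letters searched, on either strand.
Cdc6, chr11:98907982-98908150, + strand: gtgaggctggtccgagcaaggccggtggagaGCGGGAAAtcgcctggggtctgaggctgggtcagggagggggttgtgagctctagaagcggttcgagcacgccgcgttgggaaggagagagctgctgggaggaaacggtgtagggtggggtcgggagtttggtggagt
Mcm5, chr8:75109259-75109508, + strand: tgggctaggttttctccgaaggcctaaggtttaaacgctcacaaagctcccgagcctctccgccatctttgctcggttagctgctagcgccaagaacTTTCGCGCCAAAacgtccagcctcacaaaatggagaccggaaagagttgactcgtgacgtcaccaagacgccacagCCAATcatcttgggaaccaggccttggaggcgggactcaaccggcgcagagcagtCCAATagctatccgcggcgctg
Mcm6, chr1:128359706-128359955, - strand: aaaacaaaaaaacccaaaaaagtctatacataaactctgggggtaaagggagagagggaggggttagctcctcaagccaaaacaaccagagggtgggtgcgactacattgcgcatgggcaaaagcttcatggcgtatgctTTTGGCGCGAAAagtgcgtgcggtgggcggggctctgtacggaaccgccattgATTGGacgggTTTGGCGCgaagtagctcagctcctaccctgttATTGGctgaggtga
Cdk1, chr10:69352939-69353162, - strand: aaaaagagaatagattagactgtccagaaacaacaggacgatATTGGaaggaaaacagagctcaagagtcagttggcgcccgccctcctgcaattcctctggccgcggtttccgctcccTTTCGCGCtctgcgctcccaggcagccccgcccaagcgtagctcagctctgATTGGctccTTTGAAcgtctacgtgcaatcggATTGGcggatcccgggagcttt
Bub1b, chr2:118597961-118598210, + strand: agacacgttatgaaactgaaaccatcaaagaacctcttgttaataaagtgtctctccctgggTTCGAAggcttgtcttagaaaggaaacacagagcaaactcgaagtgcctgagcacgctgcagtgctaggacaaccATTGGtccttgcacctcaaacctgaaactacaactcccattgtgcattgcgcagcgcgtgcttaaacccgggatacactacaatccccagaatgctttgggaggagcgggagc
Kif11, chr19:37376132-37376381, + strand: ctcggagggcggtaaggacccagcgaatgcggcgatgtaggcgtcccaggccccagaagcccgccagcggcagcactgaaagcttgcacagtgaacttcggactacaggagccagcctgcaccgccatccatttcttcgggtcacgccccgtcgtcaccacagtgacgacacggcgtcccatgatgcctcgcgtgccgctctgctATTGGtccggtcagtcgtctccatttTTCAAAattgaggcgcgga
The E2F letters searched were TTTCCCGC, TTTCGCGC, TTTGCCGC and TTTGGCGC, the CHR letters were TTTGAA and TTCGAA, and CCAAT was searched as well. In Mcm5 and Mcm6, 2 E2F matches on opposite strands overlap, and no match of one kind overlapped one of another kind in these windows. E2F letters were found in 5 of 34 members (14.7%), namely Cdc6, Mcm5, Mcm6, Mcm7 and Cdk1, and in 2.16% of all 27025 genes with a window. CHR letters were found in 11 members (32.4%), among them 6 of the 15 mitosis members with a window, against 19.6% of all genes. CCAAT was found in 25 members (73.5%) against 37.5% of all genes. Such matches are descriptions of these windows, and no factor's binding was measured.

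Library facts that bear on these genes are few. Depth recovered from the steps of low RPKM values and annotated gene lengths was about 39.7 to 54.2 M reads per library (M, mega). On that estimate the least abundant member, Ccnd2, rested on 466 reads or more in every library. The depth is the commonest value among the genes used, and 26.6% of them lay within 2% of it. The annotation behind the RPKM is not known either, so both estimates are rough. Treml4 ran from 0 to 0.0116 RPKM in DKO and from 1.86 to 8.39 RPKM in Apoe-/- libraries, as the genotype labels say. All 8 macrophage markers passed the filter, with a sum of 5491 to 11726 RPKM, while markers of dendritic cells, lymphocytes, mast cells and erythroid cells were under 1 RPKM each. Of the megakaryocyte markers Pf4 was at 126 to 195 RPKM, and of the progenitor markers Cd34 was at 3.13 to 6.53 RPKM. The rest of these lists were under 1 RPKM each. Xist was above 1 RPKM in 6 libraries, replicate 2 of each Apoe-/- group and replicate 3 of each DKO group, and these also had the lowest sums of 6 stromal markers (0.639 to 1.45 RPKM against 3.73 to 15.2 in the other 12) and of 9 neutrophil markers (31.5 to 39.2 against 41.1 to 84.4). Libraries of the same genotype and replicate number deviated from their group means together, so a number may mark the same animal.

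The 44 members were expressed at very different levels. Per length, mean levels over the 18 libraries ran from 1.53 RPKM for Ccnd2 and 4.88 RPKM for Cdc6 to 123 RPKM for Ccnd1 and 373 RPKM for Pcna. The widest ratio between the highest and the lowest library was that of Ccnd1, at 3.32, from 56.1 RPKM in an oxLDL 60 library of Apoe-/- cells to 186 RPKM in an untreated DKO library. Ccne2 followed with a ratio of 2.49 and Cdc6 with 2.31. At the other end, the ratio was 1.26 for Bub1b and 1.30 for Aurkb.

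**Figure D1:**
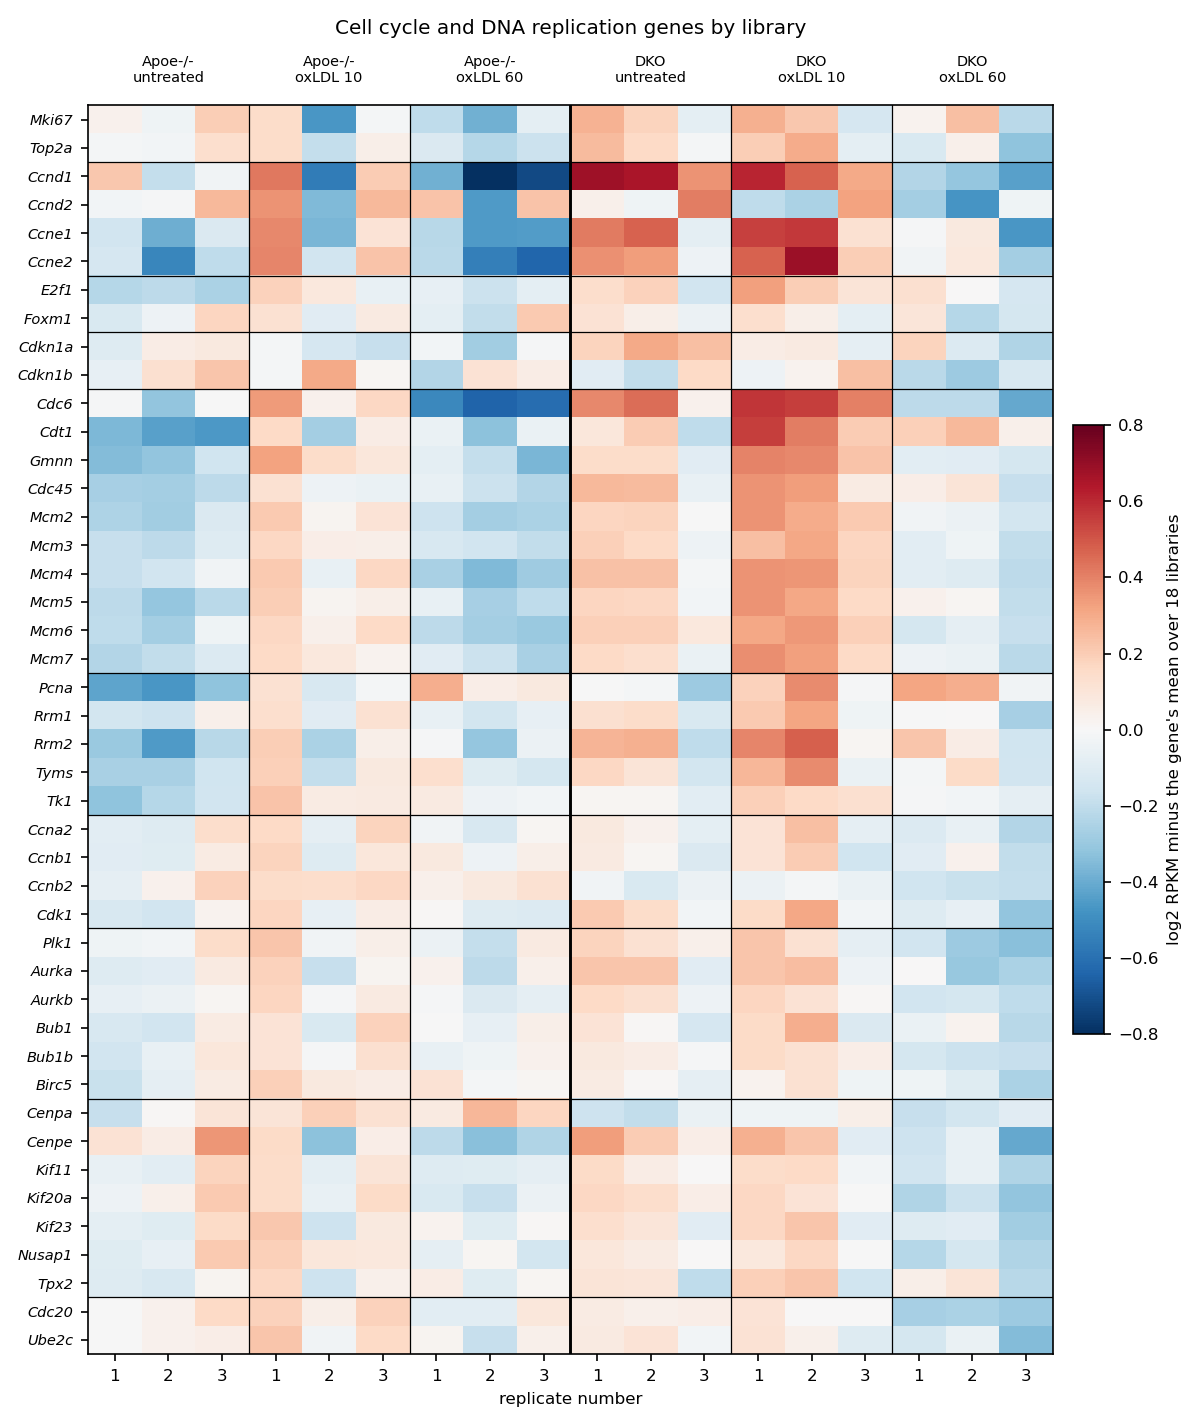
Each cell is the log2 RPKM of a member in a library minus that gene's mean over the 18 libraries, with libraries by genotype, treatment and replicate number and members grouped by role. The rows of Ccnd1, Ccne1, Ccne2 and Cdc6 hold the strongest colours, and the median of the 15 replication rows runs from -0.27 in an untreated Apoe-/- library to 0.36 in a DKO library with oxLDL 10.

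To ask how lipid loading bears on these genes, both amounts of oxLDL were set against untreated cells, and against each other, in either genotype. Few members changed by much. A gene is said to be called where limma gave an adjusted p under 0.05 together with a change of 1.4-fold or more, and to have risen or fallen where that p was under 0.05 at any fold. Changes are on the scale of log2(RPKM + 0.1). Unless a block is named, statements on single members rest on the fit without one. In comparisons of treatments the block is the replicate number within a genotype. No label names an animal, and in each genotype the Xist-positive libraries shared a number, so animal and sex cannot be told apart there. The 3 comparisons of a genotype share their libraries, so their results are not independent of each other.

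With oxLDL 10, no member was called in either genotype, where 2.79% of all genes were called in Apoe-/- and 2.26% in DKO. At any fold, 8 of 44 members (18.2%) rose in Apoe-/-, against 3.92% of all genes that rose, and none of the 44 fell. At an unadjusted p under 0.05 there were 16 members (36.4%, against 22.4%). All 8 that rose belong to the 15 members that license origins, form the helicase or serve the fork, namely Gmnn, Mcm2, Mcm3, Mcm5, Mcm6, Mcm7, Pcna and Tk1. In DKO no member passed at any fold by limma (3.97% of all genes did), although 8 had an unadjusted p under 0.05 (18.2%, against 13.2% of all genes). With the replicate number as a block, 17 members rose in Apoe-/- (38.6%, against 10.6% of all genes under that fit) and 5 in DKO (11.4%, against 4.62%).

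The 15 replication members were higher in the oxLDL 10 library than in the untreated library of the same replicate number in all 6 such pairs. Their median difference was 0.41, 0.28 and 0.23 on the log2 scale in Apoe-/- replicates 1 to 3, and 0.18, 0.15 and 0.21 in DKO. The median over all genes tested was 0.22, 0.017 and -0.043 in the same Apoe-/- pairs and at most 0.043 in DKO. In Apoe-/- replicate 1, all 44 members were higher, and the median over all genes was the highest of the 6 pairs. The 19 mitosis members differed less, with medians from 0.011 to 0.25 in Apoe-/- and from -0.0020 to 0.10 in DKO.

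With oxLDL 60 against untreated cells, 2 of 44 members were called in Apoe-/- (4.55%, against 13.9% of all genes), Ccnd1 lower (6.78% of all genes) and Pcna higher (7.13%). In DKO 2 of 44 were called (4.55%, against 12.2% of all genes), Ccnd1 and Cdc6, both lower (7.31%). At any fold, 3 rose (18.5% of all genes did) and 3 fell (11.7% did) in Apoe-/-, while in DKO 15 fell (34.1%, against 16.8%) and none rose. Rescaling each library by its median ratio to the others moved the split in Apoe-/- to 2 higher (16.6% of all genes) and 9 lower (17.4%). In DKO it gave 1 higher (2.27%, against 14.6% of all genes) and 15 lower (34.1%, against 14.5%). With the replicate number as a block, 7 fell (15.9%, against 15.2% of all genes under that fit) and 5 rose (11.4%, against 24.5%) in Apoe-/-. In DKO 26 then fell (59.1%, against 23.1%) and 1 rose (2.27%, against 12.6%). Rescaled by the median ratio, Cdc6 and Cenpe were called lower in Apoe-/- beside Ccnd1, and Pcna was no longer called (log2 fold change 0.48, adjusted p = 0.000699).

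With oxLDL 60 against oxLDL 10, the same 3 members were called in both genotypes, Ccnd1, Ccne2 and Cdc6, all lower. They make 6.82% of the members. Of all genes 6.46% were called in Apoe-/- and 5.66% in DKO, and 3.54% and 3.74% were called lower. At any fold 10 members fell in Apoe-/- (22.7%, against 7.31% of all genes) and 19 in DKO (43.2%, against 11.9%), and none rose in either. With the replicate number as a block 14 fell in Apoe-/- (31.8%, against 11.4% of all genes under that fit) and 33 in DKO (75%, against 19.1%), where Ccne1 was then called too (adjusted p = 0.000198).

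**Figure D2:**
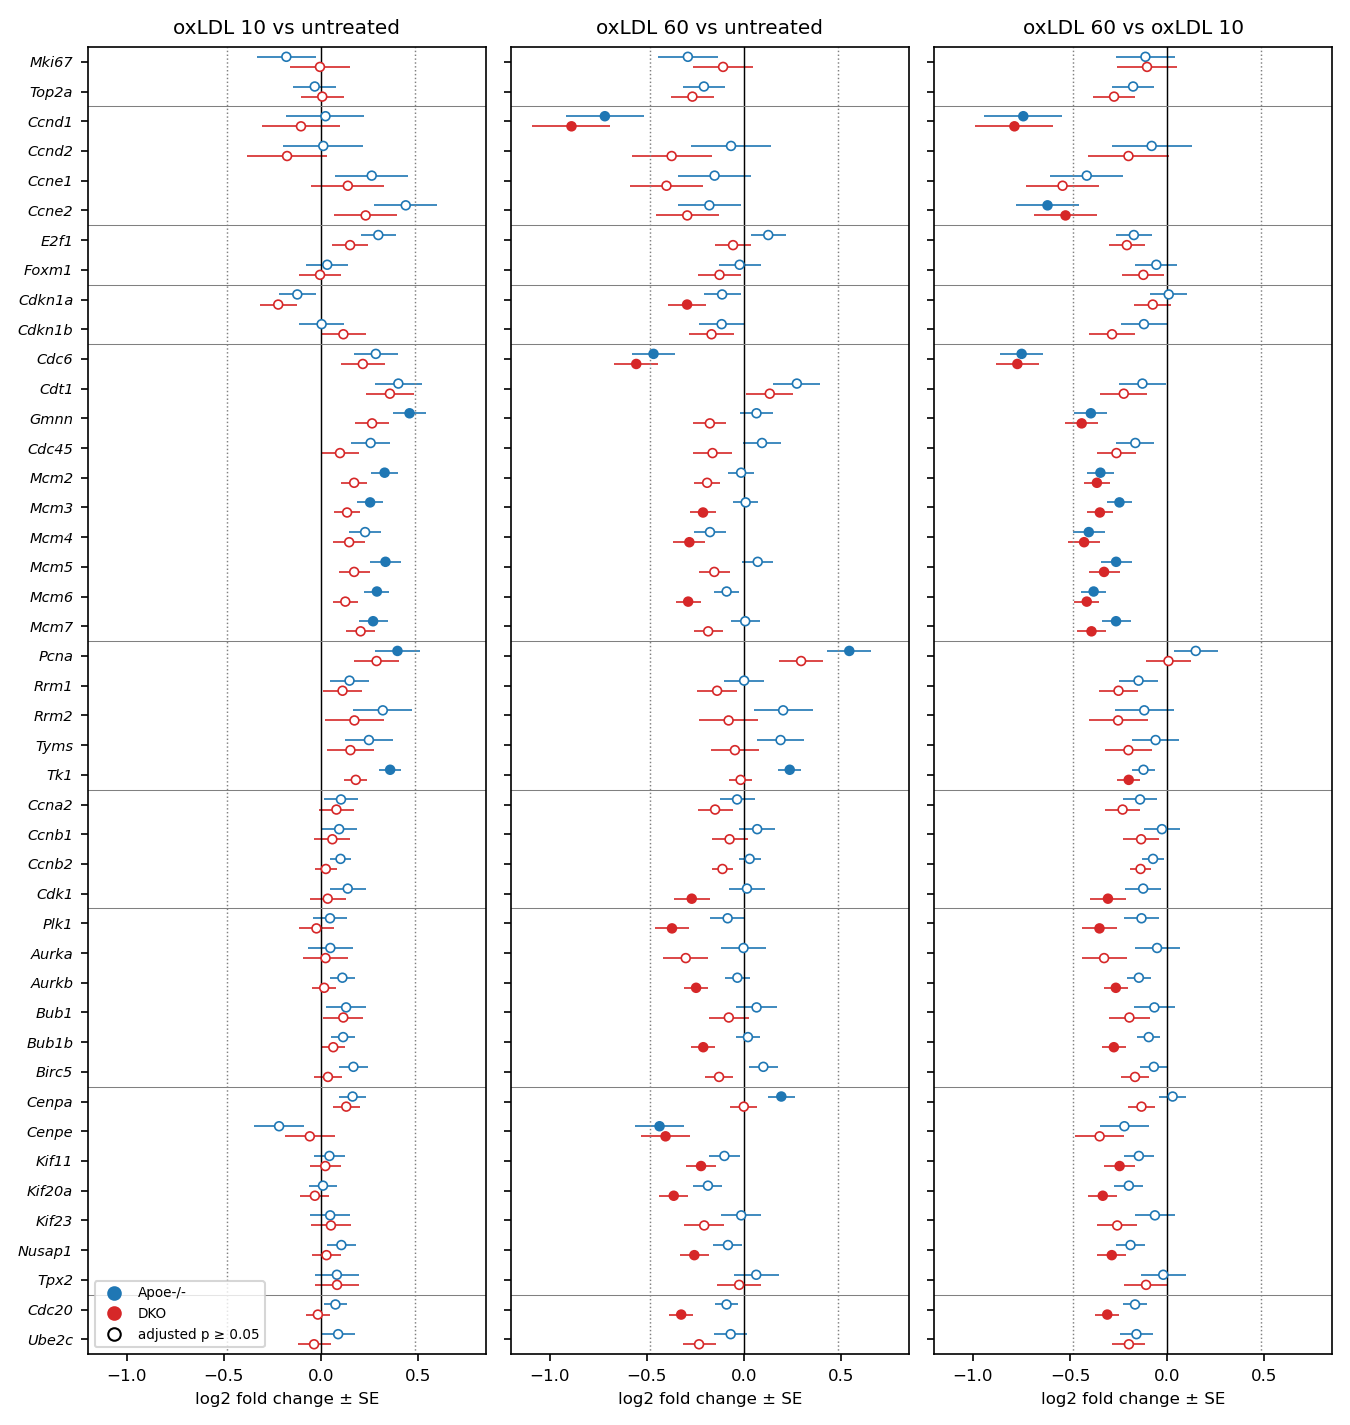
Log2 fold change with its standard error for the 44 members (rows, grouped by role) in 3 treatment comparisons, with Apoe-/- in blue and DKO in red, filled where the limma adjusted p was under 0.05, and dotted lines at a fold change of 1.4. In the panel of oxLDL 60 against untreated cells, Ccnd1 and Cdc6 lie farthest to the left, at -0.72 and -0.47 in Apoe-/- and -0.89 and -0.55 in DKO, and Pcna farthest to the right at 0.54 and 0.29.

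Among the G1 cyclins, Ccnd1, the main D cyclin of M-CSF-driven division, was lower with oxLDL 60 in both genotypes. In Apoe-/- replicates 1 to 3 it stood at 135, 102 and 114 RPKM untreated, 156, 79.1 and 134 with oxLDL 10 and 89.2, 56.1 and 70.5 with oxLDL 60. In DKO the values were 186, 183 and 149 untreated, 177, 161 and 144 with oxLDL 10 and 98.7, 94.0 and 86.1 with oxLDL 60. The oxLDL 60 libraries lay below all untreated libraries in each genotype, and in Apoe-/- the oxLDL 10 library of replicate 2 was lower than 1 of the oxLDL 60 libraries. Against untreated cells the log2 fold change was -0.72 (SE 0.20, adjusted p = 0.0119) in Apoe-/- and -0.89 (SE 0.20, adjusted p = 0.00317) in DKO, and against oxLDL 10 it was -0.74 (SE 0.20, adjusted p = 0.0202) and -0.79 (SE 0.20, adjusted p = 0.0136). For the Apoe-/- values at oxLDL 60 and untreated, the exact permutation test (two-sided) returned p = 0.1, which is the minimum for 3 libraries against 3. The call against untreated cells in Apoe-/- was lost without untreated replicate 1 (log2 fold change -0.61, adjusted p = 0.0611) or oxLDL 60 replicate 2 (-0.55, 0.0695). Against oxLDL 10 it was lost without any of 4 Apoe-/- libraries (oxLDL 10 replicates 1 and 3, oxLDL 60 replicates 2 and 3, adjusted p from 0.0586 to 0.108) and in DKO without oxLDL 10 replicate 1 (0.0603). The Apoe-/- call against oxLDL 10 was also lost with no filter on low values (adjusted p = 0.0508) and when the other 4 groups were left out of the fit (0.120).

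The cyclins E bind Cdk2 at the start of S phase. Ccne2 was measured at 15.5, 11.9 and 14.8 RPKM in untreated Apoe-/- replicates 1 to 3, 22.3, 15.3 and 20.0 with oxLDL 10 and 14.7, 11.7 and 11.0 with oxLDL 60. In DKO it stood at 22.0, 21.5 and 16.6 RPKM untreated, 23.7, 27.4 and 19.5 with oxLDL 10, and 16.7, 18.1 and 14.1 with oxLDL 60. The oxLDL 10 groups had the highest mean in each genotype, and every oxLDL 60 library was below every oxLDL 10 library of its genotype. The log2 fold change from oxLDL 10 to oxLDL 60 was -0.62 (SE 0.16, adjusted p = 0.0173) in Apoe-/- and -0.52 (SE 0.16, adjusted p = 0.0382) in DKO, while the difference of oxLDL 10 from untreated Apoe-/- cells was 0.44 (SE 0.16, adjusted p = 0.122). Each of these calls was lost without any of 4 libraries (in Apoe-/- oxLDL 10 replicates 1 and 3 and oxLDL 60 replicates 2 and 3, in DKO oxLDL 10 replicates 1 and 2 and oxLDL 60 replicates 1 and 3), with adjusted p from 0.0642 to 0.161, and that in DKO also after rescaling (adjusted p = 0.0597) and with no filter on low values (0.0790).

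Ccne1 had values of 11.1, 9.39 and 11.4 RPKM in untreated Apoe-/- replicates, 16.1, 9.56 and 13.3 with oxLDL 10 and 10.6, 9.00 and 9.05 with oxLDL 60. In DKO these were 16.4, 17.1 and 11.7 RPKM untreated, 18.0, 18.2 and 13.4 with oxLDL 10, and 12.2, 13.0 and 8.93 with oxLDL 60. Replicate 2 of Apoe-/- and replicate 3 of DKO were the lowest of their groups at each treatment. The differences between oxLDL 60 and oxLDL 10, -0.41 (SE 0.19, adjusted p = 0.177) in Apoe-/- and -0.54 (SE 0.19, adjusted p = 0.0647) in DKO, did not pass without a block. Without the 6 Xist-positive libraries both were called (adjusted p = 0.0013 and 0.00353), and without oxLDL 10 replicate 2 in Apoe-/- or replicate 3 in DKO each was called as well (0.0372 and 0.0357).

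Ccnd2, another D cyclin, was scarce in these cells. It stood at 1.48, 1.49 and 1.80 RPKM untreated, 1.93, 1.17 and 1.80 with oxLDL 10 and 1.76, 1.10 and 1.76 with oxLDL 60 in Apoe-/- replicates 1 to 3. In DKO, Ccnd2 was at 1.55, 1.47 and 2.00 RPKM untreated, 1.30, 1.26 and 1.88 with oxLDL 10, and 1.25, 1.08 and 1.47 with oxLDL 60. Its groups overlapped in every treatment comparison and no difference passed, with the largest difference in DKO at oxLDL 60 (-0.37, 95% interval from -0.81 to 0.06), which passed with the replicate number as a block (adjusted p = 0.0171).

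Of the transcription factors, E2f1, which activates S phase genes, was at 9.09, 9.21 and 8.96 RPKM in untreated Apoe-/- replicates, 12.1, 11.3 and 10.2 with oxLDL 10 and 10.2, 9.48 and 10.1 with oxLDL 60. In DKO, E2f1 had values of 11.7, 12.1 and 9.58 RPKM untreated, 13.4, 12.2 and 11.4 with oxLDL 10, and 11.7, 10.7 and 9.70 with oxLDL 60. All 3 Apoe-/- libraries with oxLDL 10 lay above the untreated ones, but the difference of 0.30 (SE 0.091, adjusted p = 0.0618) did not pass without a block and did with the replicate number as one (adjusted p = 0.00508). Foxm1, which drives the mitotic wave, had values of 10.9, 11.5 and 13.4 RPKM untreated, 13.0, 11.2 and 12.5 with oxLDL 10 and 11.3, 10.4 and 13.8 with oxLDL 60 in Apoe-/-. In DKO, Foxm1 was measured at 12.9, 12.3 and 11.5 RPKM untreated, 13.1, 12.3 and 11.3 with oxLDL 10, and 12.7, 10.2 and 10.8 with oxLDL 60. Its groups overlapped throughout, and its log2 differences in the treatment comparisons lay between -0.13 and 0.03.

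Neither inhibitor of cyclin-dependent kinases rose in any treatment comparison. Cdkn1a (p21) stood at 47.6, 53.2 and 53.9 RPKM in untreated Apoe-/- replicates, 50.6, 46.6 and 45.1 with oxLDL 10 and 50.4, 42.2 and 50.9 with oxLDL 60. In DKO it was at 57.7, 62.9 and 60.3 untreated, 53.1, 53.7 and 48.6 with oxLDL 10 and 57.9, 47.4 and 43.3 with oxLDL 60. The 1 treatment comparison in which it passed was oxLDL 60 in DKO, where it fell (log2 fold change -0.29, SE 0.096, adjusted p = 0.0323) while replicate 1 stayed within the untreated range. Cdkn1b (p27) had values of 11.3, 12.9 and 13.8 RPKM untreated, 11.7, 14.6 and 11.9 with oxLDL 10 and 10.1, 12.8 and 12.3 with oxLDL 60 in Apoe-/-. In DKO, Cdkn1b stood at 11.1, 10.3 and 13.2 RPKM untreated, 11.5, 12.0 and 14.0 with oxLDL 10, and 10.2, 9.67 and 10.8 with oxLDL 60. No treatment comparison of Cdkn1b passed, and the largest difference, oxLDL 60 against oxLDL 10 in DKO, was -0.28 (SE 0.12, adjusted p = 0.117). That fall passed with the replicate number as a block (adjusted p = 0.00715).

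Among the genes of origin licensing and the helicase, Cdc6 was lowest at oxLDL 60 in both genotypes. Cdc6, which loads the Mcm helicase onto origins and whose upstream stretch is shown above, stood at 4.68, 3.78 and 4.70 RPKM in untreated Apoe-/- replicates, 5.96, 4.83 and 5.28 with oxLDL 10 and 3.29, 3.03 and 3.09 with oxLDL 60. In DKO it was at 6.15, 6.42 and 4.82 RPKM untreated, 6.99, 6.92 and 6.22 with oxLDL 10, and 4.07, 4.07 and 3.55 with oxLDL 60. All oxLDL 60 libraries of a genotype were below all its other libraries, and all oxLDL 10 libraries of Apoe-/- were above the untreated ones. The log2 fold change of Cdc6 from oxLDL 10 to oxLDL 60 was -0.75 (SE 0.11, adjusted p = 0.000207) for Apoe-/- and -0.77 (SE 0.11, adjusted p = 0.000173) for DKO, and both calls held without any single library. Against untreated cells the difference was -0.47 (SE 0.11, adjusted p = 0.00438) in Apoe-/-, just under the fold limit, and -0.55 (SE 0.11, adjusted p = 0.00131) in DKO. The latter went under the fold limit without DKO untreated replicate 2 (-0.48) or with a pseudocount of 1 (-0.47), and the former passed the limit without untreated replicate 2 (-0.57) or oxLDL 60 replicate 1 (-0.50) of Apoe-/-.

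The 6 subunits of the Mcm2-7 helicase moved alike. Mcm6 was measured at 44.7, 42.6 and 50.2 RPKM in untreated Apoe-/- replicates, 57.5, 52.9 and 57.3 with oxLDL 10 and 44.4, 42.6 and 41.9 with oxLDL 60. In DKO, Mcm6 was at 58.7, 58.7 and 54.4 RPKM untreated, 63.7, 65.3 and 58.7 with oxLDL 10, and 46.6, 48.8 and 45.3 with oxLDL 60. Mcm4 was at 23.5, 24.0 and 26.3 RPKM untreated, 31.0, 25.7 and 30.0 with oxLDL 10, and 22.3, 21.0 and 22.0 with oxLDL 60 in Apoe-/-. In DKO, Mcm4 had values of 31.4, 31.4 and 26.5 RPKM untreated, 34.3, 34.2 and 30.3 with oxLDL 10, and 25.3, 24.9 and 23.1 with oxLDL 60. For both genes the oxLDL 60 libraries lay below every oxLDL 10 library of their genotype, and those of Mcm4, and in DKO those of Mcm6, were below every untreated library too. Between oxLDL 10 and oxLDL 60 all 6 subunits fell in both genotypes, at log2 fold changes of -0.40 to -0.25 for Apoe-/- and -0.43 to -0.32 for DKO, and none reached the fold limit. Of all genes 7.31% fell in Apoe-/- and 11.9% in DKO. At oxLDL 10 5 of 6 rose in Apoe-/- (3.92% of all genes did) and none passed in DKO (3.97% did), with log2 differences of 0.23 to 0.33 and 0.13 to 0.21. Against untreated cells oxLDL 60 left 0 of 6 changed in Apoe-/- (-0.17 to 0.07) and 3 of 6 lower in DKO (-0.29 to -0.15). Of all genes 30.2% changed in Apoe-/- and 16.8% were lower in DKO.

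Gmnn (geminin), which keeps Cdt1 from loading origins again, rose in Apoe-/- cells given oxLDL 10 (log2 fold change 0.46, SE 0.086, adjusted p = 0.00368) and fell from oxLDL 10 to oxLDL 60 in both genotypes (log2 fold change -0.39, SE 0.086, adjusted p = 0.00478 in Apoe-/- and -0.44, SE 0.086, adjusted p = 0.00199 in DKO). It was called at oxLDL 10 without Apoe-/- untreated replicate 3 (0.51) or oxLDL 10 replicate 3 (0.51). Cdt1, its target, had log2 differences of 0.40 in Apoe-/- and 0.36 in DKO at oxLDL 10, and of 0.27 and 0.13 at oxLDL 60, none of which passed. It passed with the replicate number as a block at oxLDL 10 in both genotypes (adjusted p = 0.00115 in Apoe-/- and 0.00350 in DKO) and at oxLDL 60 in Apoe-/- (0.00591). Without Apoe-/- oxLDL 10 replicate 2, or without all Xist-positive libraries, Cdt1 was called higher at oxLDL 10 in Apoe-/- (0.53 and 0.52). Cdc45, a further helicase subunit, did not pass in any treatment comparison, at -0.26 to 0.26, but with the block it rose at oxLDL 10 in Apoe-/- (0.26, adjusted p = 0.00525) and fell from oxLDL 10 to oxLDL 60 in DKO (-0.26, 0.00260) and Apoe-/- (-0.16, 0.0471) and at oxLDL 60 in DKO (-0.16, 0.0336).

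Of the 5 genes of the fork and of nucleotide supply, none was lower at oxLDL 60 than in untreated cells by the test, and 2 were higher in Apoe-/-. Of all genes 11.7% were lower and 18.5% higher in Apoe-/-, and 16.8% were lower in DKO. Pcna, the clamp that holds the polymerase on DNA, stood at 275, 266 and 294 RPKM in untreated Apoe-/- replicates, 401, 337 and 364 with oxLDL 10 and 449.7, 382 and 389 with oxLDL 60. In DKO it was at 368, 364 and 301 RPKM untreated, 419, 478 and 366 with oxLDL 10, and 458, 450.3 and 361 with oxLDL 60. Every treated Apoe-/- library was above every untreated one, while in DKO the treated replicate 3 libraries lay within the untreated range. The log2 fold change was 0.40 (SE 0.11, adjusted p = 0.047) at oxLDL 10 and 0.54 (SE 0.11, adjusted p = 0.00154) at oxLDL 60 in Apoe-/-, and in DKO it was 0.29 (SE 0.11, adjusted p = 0.0693) at oxLDL 60, which passed neither limit without a block and the limit on p with the replicate number as one (adjusted p = 0.00225). Without Apoe-/- oxLDL 60 replicate 1 the change was under the fold limit (0.47).

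Tk1, a thymidine kinase of S phase, was at 53.4, 57.1 and 60.0 RPKM in untreated Apoe-/- replicates, 78.3, 69.9 and 70.2 with oxLDL 10 and 70.1, 64.8 and 65.7 with oxLDL 60. In DKO, Tk1 was measured at 67.5, 67.3 and 62.8 RPKM untreated, 76.2, 74.6 and 73.0 with oxLDL 10, and 66.3, 65.6 and 63.4 with oxLDL 60. All treated Apoe-/- libraries exceeded the untreated ones, and Tk1 rose there with the lower amount (log2 fold change 0.36, SE 0.058, adjusted p = 0.00133) and the higher one (log2 fold change 0.24, SE 0.058, adjusted p = 0.00518). From oxLDL 10 to oxLDL 60 it fell in DKO by 0.20 on the log2 scale. Rrm2, the regulated subunit of ribonucleotide reductase, had values of 53.3, 47.9 and 56.2 RPKM untreated, 75.1, 54.9 and 67.7 with oxLDL 10 and 65.1, 52.9 and 63.5 with oxLDL 60 in Apoe-/-. In DKO, Rrm2 stood at 79.3, 80.0 and 57.0 RPKM untreated, 85.8, 91.3 and 66.2 with oxLDL 10, and 76.6, 68.3 and 58.6 with oxLDL 60. Rrm2, Rrm1 and Tyms did not pass in any of the 6 treatment comparisons, with log2 differences from -0.25 to 0.32. Rrm2, with the replicate number as a block, rose in Apoe-/- at oxLDL 10 (adjusted p = 0.00303) and oxLDL 60 (0.0198), Tyms rose at oxLDL 10 there (0.0380), and Rrm1 and Rrm2 fell from oxLDL 10 to oxLDL 60 in DKO (0.00278 and 0.00850).

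Of the mitotic cyclins and Cdk1, only Cdk1, the kinase that starts mitosis, passed in a treatment comparison, and it did so in DKO. Cdk1 was at 25.4, 25.0 and 28.4 RPKM in untreated Apoe-/- replicates, 31.3, 26.5 and 29.0 with oxLDL 10 and 28.0, 25.9 and 25.7 with oxLDL 60. In DKO, Cdk1 was at 32.1, 30.8 and 27.3 RPKM untreated, 30.9, 34.4 and 27.4 with oxLDL 10, and 25.9, 26.6 and 22.4 with oxLDL 60. All DKO libraries with oxLDL 60 were below the untreated ones, and the log2 fold change was -0.27 (SE 0.093, adjusted p = 0.0414) against untreated cells and -0.30 (SE 0.093, adjusted p = 0.0341) against oxLDL 10. Ccna2, the cyclin of S phase and G2, stood at 58.1, 57.6 and 68.2 RPKM untreated, 68.9, 58.8 and 69.9 with oxLDL 10 and 60.4, 56.4 and 62.3 with oxLDL 60 in Apoe-/-. In DKO, Ccna2 had values of 65.3, 63.3 and 58.6 RPKM untreated, 66.7, 73.0 and 58.8 with oxLDL 10, and 57.2, 59.3 and 52.4 with oxLDL 60. Ccnb2, a partner of Cdk1, had values of 58.2, 62.7 and 69.6 RPKM untreated, 67.8, 67.4 and 68.8 with oxLDL 10, and 63.0, 64.5 and 66.5 with oxLDL 60 in Apoe-/-. In DKO, Ccnb2 was measured at 60.0, 56.1 and 59.2 RPKM untreated, 59.2, 60.5 and 58.9 with oxLDL 10, and 54.8, 54.0 and 53.5 with oxLDL 60. Ccna2, Ccnb1 and Ccnb2 did not pass in any treatment comparison, with differences from -0.23 to 0.10, although the oxLDL 60 libraries of Ccnb2 lay below all other DKO libraries. Ccna2 fell, with the replicate number as a block, from oxLDL 10 to oxLDL 60 in DKO (adjusted p = 0.00729), while Ccnb1 and Ccnb2 still passed nowhere.

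Of the 6 mitotic kinases and checkpoint genes, 3 fell at oxLDL 60 in DKO (16.8% of all genes did) and none changed in Apoe-/- (30.2% did). Plk1, a kinase of spindle assembly and mitotic exit, was at 22.1, 22.3 and 25.0 RPKM in untreated Apoe-/- replicates, 26.4, 22.1 and 23.4 with oxLDL 10 and 21.9, 19.8 and 23.8 with oxLDL 60. In DKO, Plk1 stood at 25.6, 24.6 and 23.2 RPKM untreated, 26.4, 24.6 and 21.5 with oxLDL 10, and 20.3, 18.5 and 17.9 with oxLDL 60. Aurka, the kinase of the spindle poles, stood at 28.2, 28.5 and 32.0 RPKM untreated, 34.5, 26.7 and 30.8 with oxLDL 10, and 31.1, 26.3 and 31.3 with oxLDL 60 in Apoe-/-. In DKO, Aurka was at 35.4, 35.5 and 28.5 RPKM untreated, 35.4, 36.0 and 29.5 with oxLDL 10, and 30.4, 24.7 and 25.5 with oxLDL 60. Aurkb, the kinase of the chromosomal passenger complex, stood at 39.0, 39.5 and 41.2 RPKM untreated, 46.0, 40.6 and 42.9 with oxLDL 10, and 40.5, 37.7 and 38.8 with oxLDL 60 in Apoe-/-. In DKO, Aurkb had values of 45.6, 44.6 and 39.7 RPKM untreated, 46.0, 44.3 and 41.1 with oxLDL 10, and 36.8, 37.1 and 35.4 with oxLDL 60. The DKO groups with oxLDL 60 did not overlap the untreated ones for Plk1 and Aurkb, and for Aurka they did. Plk1 fell by 0.37 on the log2 scale (SE 0.089, adjusted p = 0.00521), Aurkb by 0.25 (0.063, 0.00792) and the checkpoint kinase Bub1b by 0.21 (0.061, 0.0164), while Aurka was at -0.30 (SE 0.12, adjusted p = 0.0677). The fall of Aurka passed with the replicate number as a block (adjusted p = 0.00607). Bub1 and the survivin gene Birc5 did not pass in any treatment comparison, and with the block Bub1 fell in DKO from oxLDL 10 to oxLDL 60 (-0.19, adjusted p = 0.0296).

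In the group of kinetochore and spindle genes, 4 of 7 fell at oxLDL 60 in DKO (16.8% of all genes did). In Apoe-/- 1 of 7 fell (11.7% of all genes did) and 1 rose (18.5% did). Cenpe, the kinetochore motor, was at 14.4, 13.9 and 16.9 RPKM in untreated Apoe-/- replicates, 14.8, 10.6 and 13.8 with oxLDL 10 and 11.5, 10.5 and 11.3 with oxLDL 60. In DKO, Cenpe was measured at 16.7, 15.3 and 13.8 RPKM untreated, 16.2, 15.5 and 12.5 with oxLDL 10, and 11.9, 12.7 and 10.0 with oxLDL 60. It fell in both genotypes (log2 fold change -0.43, SE 0.13, adjusted p = 0.0157 in Apoe-/- and -0.40, SE 0.13, adjusted p = 0.0271 in DKO), with groups that did not overlap. Kif20a, a kinesin of the central spindle, had values of 31.2, 33.1 and 37.2 RPKM untreated, 35.6, 30.9 and 35.7 with oxLDL 10, and 29.6, 28.3 and 31.2 with oxLDL 60 in Apoe-/-. In DKO, Kif20a stood at 36.1, 35.5 and 33.4 RPKM untreated, 36.0, 34.7 and 32.1 with oxLDL 10, and 27.2, 28.6 and 25.8 with oxLDL 60. Nusap1, which bundles spindle microtubules, had values of 28.3, 28.9 and 35.0 RPKM untreated, 34.5, 32.2 and 32.1 with oxLDL 10, and 28.8, 30.6 and 27.4 with oxLDL 60 in Apoe-/-. In DKO, Nusap1 was at 32.2, 31.6 and 30.3 RPKM untreated, 32.0, 33.9 and 30.2 with oxLDL 10, and 25.8, 27.5 and 25.6 with oxLDL 60. All DKO libraries with oxLDL 60 lay below the untreated ones for both genes, and the log2 fold changes were -0.36 (SE 0.075, adjusted p = 0.00153) and -0.26 (SE 0.075, adjusted p = 0.0173). Kif11, the motor that separates the poles, also fell there (log2 fold change -0.22, adjusted p = 0.0487). Cenpa, the centromeric histone, rose by a little in Apoe-/- cells given oxLDL 60 (log2 fold change 0.19, SE 0.070, adjusted p = 0.0467), and Kif23 and Tpx2 did not pass in any treatment comparison. Kif23 fell, with the replicate number as a block, in DKO at oxLDL 60, against untreated cells (-0.20, adjusted p = 0.0244) and against oxLDL 10 (-0.26, 0.00937), while Tpx2 passed nowhere.

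Cdc20, which activates the anaphase-promoting complex, had the lowest adjusted p of the 19 mitosis members at oxLDL 60 in DKO. Its values were 45.2, 46.5 and 50.7 RPKM in untreated Apoe-/- replicates, 51.6, 46.9 and 51.6 with oxLDL 10 and 42.8, 42.8 and 48.4 with oxLDL 60. In DKO, Cdc20 was at 47.5, 46.7 and 47.1 RPKM untreated, 49.0, 45.5 and 45.5 with oxLDL 10, and 37.8, 38.1 and 37.0 with oxLDL 60. The DKO libraries with oxLDL 60 lay close together and below all others, at a log2 fold change of -0.32 (SE 0.061, adjusted p = 0.000705) against untreated cells. Ube2c, the ubiquitin-conjugating enzyme of that complex, stood at 81.8, 83.9 and 85.1 RPKM untreated, 95.7, 80.4 and 91.3 with oxLDL 10, and 83.1, 72.2 and 84.4 with oxLDL 60 in Apoe-/-. In DKO, Ube2c had values of 86.1, 88.3 and 80.7 RPKM untreated, 88.6, 84.4 and 76.4 with oxLDL 10, and 74.3, 79.1 and 64.5 with oxLDL 60. Its DKO groups did not overlap either, but its difference of -0.23 (SE 0.085, adjusted p = 0.0556) did not pass without a block and did with the replicate number as one (adjusted p = 0.00648).

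The usual markers of dividing cells did not pass in any treatment comparison without a block. Mki67, the gene of the Ki-67 antigen, had values of 57.6, 54.9 and 64.5 RPKM in untreated Apoe-/- replicates, 62.2, 40.8 and 55.6 with oxLDL 10 and 48.8, 43.0 and 53.2 with oxLDL 60. In DKO, Mki67 was measured at 68.1, 63.6 and 53.2 RPKM untreated, 68.6, 65.3 and 51.1 with oxLDL 10, and 57.4, 66.4 and 48.4 with oxLDL 60. Top2a, the topoisomerase that untangles chromosomes, was at 103, 103 and 115 RPKM untreated, 116, 91.5 and 108 with oxLDL 10, and 96.5, 89.2 and 92.7 with oxLDL 60 in Apoe-/-. In DKO, Top2a stood at 125, 117 and 103 RPKM untreated, 120.0, 129 and 99.1 with oxLDL 10, and 96.2, 108 and 83.8 with oxLDL 60. In Apoe-/- all oxLDL 60 libraries were below all untreated ones for both genes, and in DKO the groups overlapped. At oxLDL 60 Mki67 was at -0.29 (SE 0.15, adjusted p = 0.172) in Apoe-/- and -0.11 (SE 0.15, adjusted p = 0.669) in DKO, and Top2a at -0.21 (SE 0.11, adjusted p = 0.173) and -0.27 (SE 0.11, adjusted p = 0.0884). The 95% interval of the Mki67 difference ran from -0.61 to 0.04 in Apoe-/- and from -0.43 to 0.22 in DKO, so that a fall of 0.47, as measured for Cdc6 in Apoe-/-, lies within the first interval. Mki67 fell, with the replicate number as a block, at oxLDL 60 in Apoe-/- (adjusted p = 0.0102), and Top2a fell in Apoe-/- (0.0218) and in DKO (0.00514, and 0.00646 against oxLDL 10). Without DKO oxLDL 60 replicate 3 the DKO difference of Mki67 was 0.0092.

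**Figure D3:**
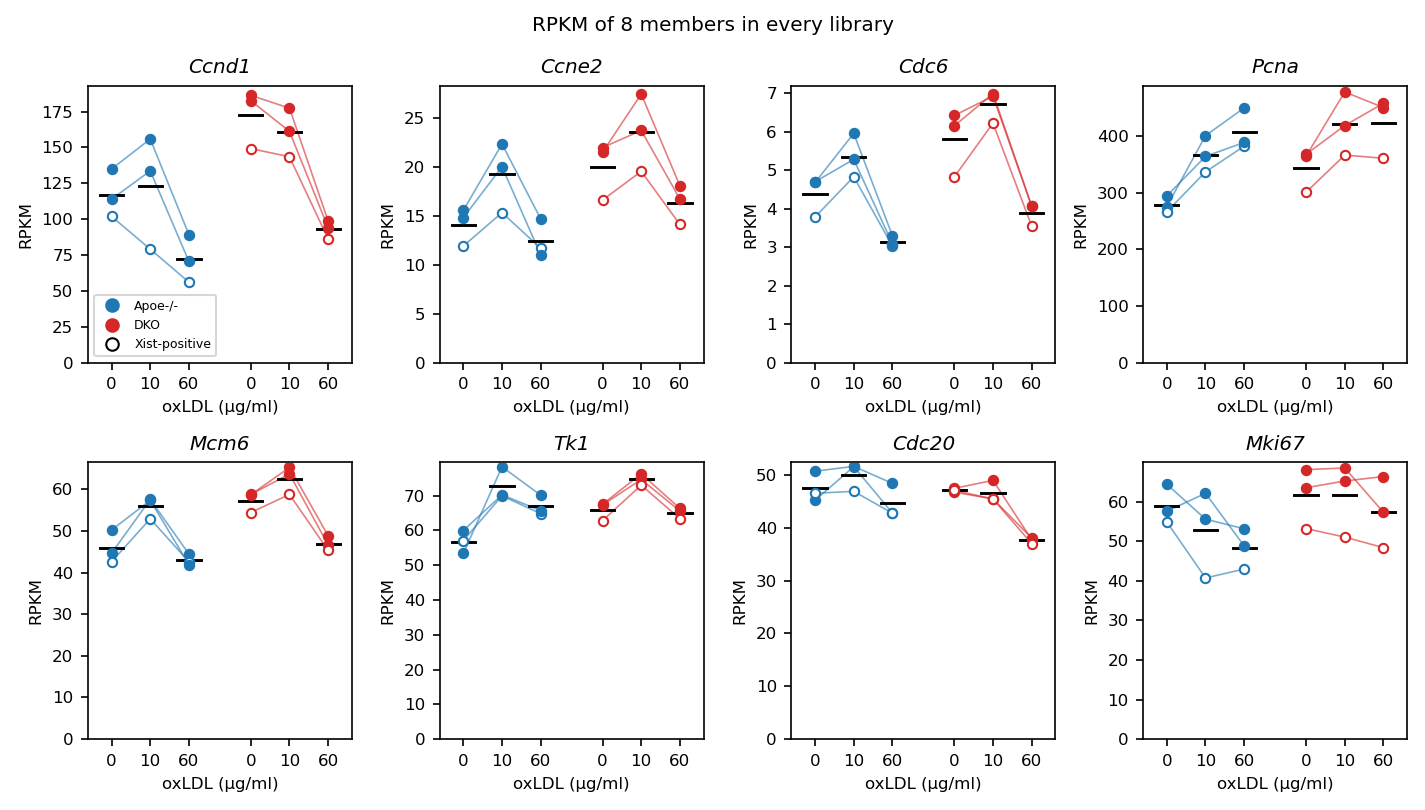
RPKM of 8 members in every library against the amount of oxLDL, Apoe-/- in blue and DKO in red, with lines joining libraries of the same replicate number, black bars for group means and open points for Xist-positive libraries. Cdc6 goes from means of 4.39 to 5.36 and then 3.14 RPKM in Apoe-/-, Ccnd1 is lowest at 60 µg/ml in both genotypes, and the Pcna points of Apoe-/- lie higher with either amount.

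To ask whether the loss of Treml4 bears on these genes, DKO cells were compared with Apoe-/- cells at each treatment. No member was called at any of the 3 treatments, where 0.21% of all genes were called untreated, 0.0857% at oxLDL 10 and 0.125% at oxLDL 60. By limma at an unadjusted p under 0.05 the counts of members were 19, 11 and 10 in that order (17.3%, 9.75% and 7.88% of all genes). At any fold, 2 members were higher in untreated DKO cells (4.55%, against 0.358% of all genes), Mcm2 (log2 fold change 0.33, SE 0.068, adjusted p = 0.0472) and Mcm6 (log2 fold change 0.32, SE 0.065, adjusted p = 0.0453). A block that joined equal replicate numbers across genotypes gave 7 members higher untreated (15.9%, against 1.70% of all genes under that fit). Equal numbers of different genotypes are different animals (median r -0.17), so that count is not a paired result. After rescaling by the median ratio no member was higher (0.125% of all genes were), and neither fit called any.

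In untreated cells 19 of 44 members had all DKO libraries above all Apoe-/- libraries (43.2%, against 18.3% of all genes), and none the reverse. They comprised 14 of the 15 replication members, Ccnd1, Ccne1, Ccne2, E2f1 and Cdkn1a, and 0 of the 19 mitosis members. The median log2 difference was 0.32 over the replication members and 0.054 over the mitosis members, beside 0.088 over all genes tested. The median of all genes moved by about 0.10 with rescaling by the median ratio, after which the replication and mitosis medians were 0.22 and -0.046. The largest differences were those of Ccnd1 (log2 fold change 0.56, SE 0.20, adjusted p = 0.183), Ccne2 (log2 fold change 0.50, SE 0.16, adjusted p = 0.157), Ccne1 (log2 fold change 0.49, SE 0.19, adjusted p = 0.214) and Cdt1 (log2 fold change 0.45, SE 0.12, adjusted p = 0.105). At oxLDL 60 the replication median was 0.13 and the mitosis median -0.14, beside -0.025 over all genes.

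The counts between genotypes moved with the Xist-positive libraries, of which each group held 1. Without them 15 members were higher at any fold in untreated DKO cells (34.1%, against 4.32% of all genes), and 6 were called, namely Ccnd1, Ccne1, Ccne2, Cdt1, Cdc45 and Rrm2. The genes called among all those tested went from 27 to 308 (2.40%) when these libraries were left out. With a term for Xist 17 members were higher (38.6%, against 6.64% of all genes), and Ccnd1, Ccne1 and Ccne2 were called, beside 172 of all genes (1.34%). Without DKO untreated replicate 3 alone, 3 were called, a count not set here against all genes under that fit. Neutrophil markers, of cells that share marrow precursors with macrophages, stood at a sum of 42.1, 31.5 and 49.4 RPKM in untreated Apoe-/- replicates 1 to 3 and of 84.4, 70.6 and 37.8 RPKM in DKO. Of these 9 markers 8 passed the filter and none was called between genotypes. Progenitor markers summed to 4.28 to 4.86 RPKM in Apoe-/- and 4.38 to 7.52 RPKM in DKO, where the highest sum was that of the Xist-positive replicate 3. The stromal markers summed to 0.961 to 14.5 RPKM in Apoe-/- and 1.45 to 5.67 RPKM in DKO. The part of sex or of other cells in this difference was not tested.

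**Figure D4:**
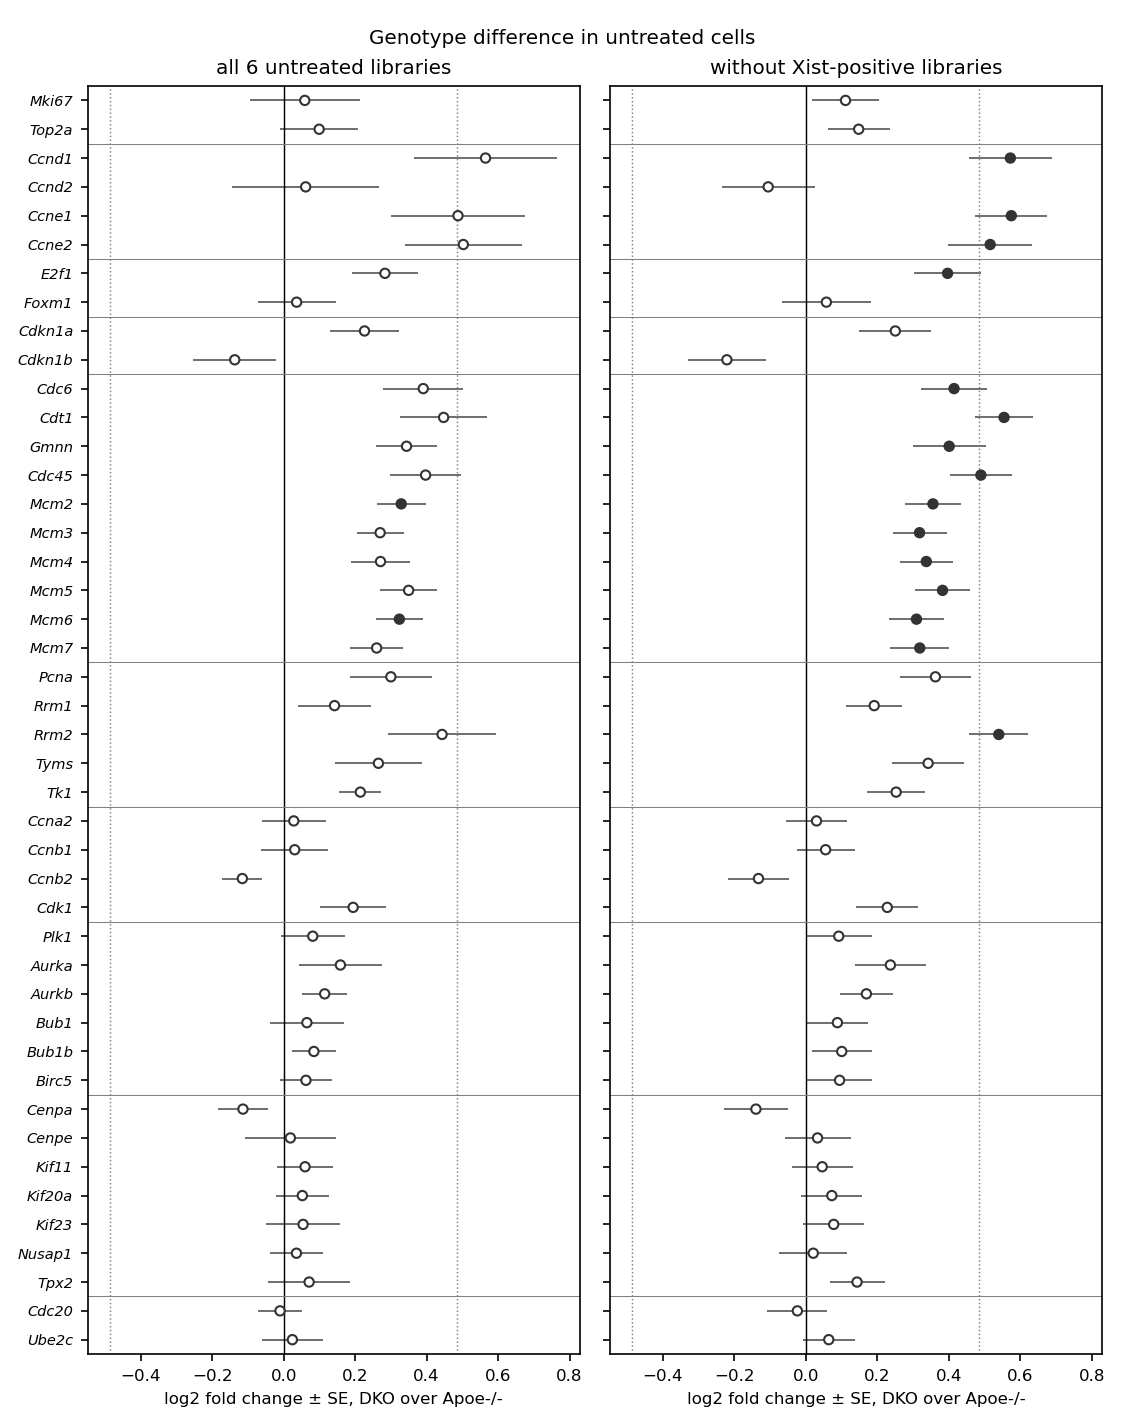
Log2 fold change of DKO over Apoe-/- in untreated cells with its standard error for the 44 members. The left panel is from the fit over all 18 libraries, 6 of them untreated. The right panel is from the fit without the 6 Xist-positive libraries, 2 of them untreated. Points are filled where the limma adjusted p was under 0.05, and dotted lines mark a fold change of 1.4. Replication members sit near 0.32 and mitosis members near 0.054 at left, and 2 points are filled at left and 15 at right.

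Whether oxLDL acted differently in the genotypes was tested with the interaction term. No member passed for either amount, at a lowest adjusted p of 0.507 for oxLDL 60, and by limma 1 member at oxLDL 10 and 9 at oxLDL 60 had an unadjusted p under 0.05 (1.92% and 9.78% of all genes). Of all genes, 0% were called for oxLDL 10 and 0.0156% for oxLDL 60. At oxLDL 60 the term was below 0 for 42 of 44 members with a median of -0.18, beside a median of -0.11 over all genes tested, of which 21.9% were above 0. After rescaling by the median ratio 33 were below 0, at a median of -0.057. The falls of mitosis members that passed in DKO and did not in Apoe-/- were therefore not shown to differ between genotypes.

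Other genes of the pathway were taken from lists of related function. Among 64 further replication genes, 17 rose at oxLDL 10 in Apoe-/- (26.6%, against 3.92% of all genes) and none in DKO (1.57% of all genes). Of the 17, 2 were called (3.12% of the list, against 0.748% of all genes called higher). These were the uracil glycosylase gene Ung (log2 fold change 0.50, adjusted p = 0.0388) and the clamp loader subunit gene Dscc1 (log2 fold change 0.57, adjusted p = 0.0382). The median log2 difference of the 64 was 0.23 in Apoe-/- and 0.16 in DKO, beside 0.067 and 0.021 over all genes. Between oxLDL 10 and oxLDL 60, 19 fell in Apoe-/- (29.7%, against 7.31%) and 36 in DKO (56.2%, against 11.9%). Of these, 5 were called lower in Apoe-/- (7.81%, against 3.54% of all genes) and 12 in DKO (18.8%, against 3.74%). The called genes with the largest falls were Ung (log2 fold change -0.98, adjusted p = 0.000116 in Apoe-/- and -1.07, adjusted p = 5.3e-05 in DKO), Hells, a chromatin remodeller (log2 fold change -0.73, adjusted p = 0.000139 in Apoe-/- and -0.75, adjusted p = 0.000113 in DKO), Dtl, which marks Cdt1 for degradation, in Apoe-/- (log2 fold change -0.71, adjusted p = 9.9e-06) and Cdca7 in DKO (log2 fold change -0.85, adjusted p = 3.2e-05). Against untreated cells, oxLDL 60 had 1 of the list called higher and 2 lower in Apoe-/- (4.69%, against 13.9% of all genes). In DKO these were 1 and 5 (9.38%, against 12.2%). Among those called, Timeless, a fork protection gene, fell from 6.16 ± 0.47 to 4.07 ± 0.14 RPKM (SD, n = 3) in Apoe-/- and from 7.43 ± 0.22 to 4.37 ± 0.026 RPKM in DKO. Dnmt1, the maintenance DNA methyltransferase, rose from 32.6 ± 0.58 to 52.5 ± 2.8 RPKM in Apoe-/- and from 38.0 ± 4.3 to 55.0 ± 5.4 RPKM in DKO. In untreated cells Cdca7 was the 1 gene of this list called higher in DKO (log2 fold change 0.56, adjusted p = 0.0279).

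Among 82 further mitosis genes, none was called at oxLDL 60 in Apoe-/-, while 5 rose (6.10%, against 18.5% of all genes) and 2 fell (2.44%, against 11.7%). In DKO 15 fell (18.3%, against 16.8%), none rose (9.06% of all genes did), and 2 were called lower (2.44%, against 7.31%), the chromatin protein gene Hmgb2 (log2 fold change -0.55, adjusted p = 2.2e-05) and the phosphatase gene Cdc25a (log2 fold change -0.55, adjusted p = 0.00235). Their median was -0.021 in Apoe-/- and -0.17 in DKO, beside 0.061 and -0.063 over all genes. Of 9 replication-dependent histone symbols, whose near-identical copies may share reads, 1 rose at oxLDL 10 in Apoe-/- (11.1%, against 3.92% of all genes). All 9 were above 0 there (66.6% of all genes were), at a median of 0.35 beside 0.067 over all genes. The study's methods name poly(A) selection, which may miss RNA of such histones, so these values need not measure S phase. In DKO 5 were above 0 and 4 below (57.6% of all genes were above 0), with a median of 0.039 beside 0.021, and none passed. Between genotypes at oxLDL 10 all 9 were lower in DKO, at a median of -0.37, and none passed there either. Of all genes 66.2% were above 0 in that comparison, at a median of 0.051.

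Of 42 further regulators of G1 and E2F, 5 were called at oxLDL 60 in Apoe-/- (11.9%, against 13.9% of all genes) and 4 in DKO (9.52%, against 12.2%). Ccnd3, the remaining D cyclin, fell from 13.9 ± 0.30 to 9.54 ± 0.89 RPKM (SD, n = 3) in Apoe-/- (log2 fold change -0.54, adjusted p = 6.8e-06). In DKO it went from 15.1 ± 0.45 to 9.40 ± 0.13 RPKM (log2 fold change -0.68, adjusted p = 6.5e-07). Cdkn2b (p15), an inhibitor of the cyclin D kinases, rose from 0.955 ± 0.15 to 1.92 ± 0.29 RPKM in Apoe-/- (log2 fold change 0.94, adjusted p = 2.4e-05). In DKO it went from 0.731 ± 0.053 to 2.01 ± 0.26 RPKM (log2 fold change 1.34, adjusted p = 5e-07). Mxd1, a repressor that opposes Myc, fell in both genotypes (log2 fold change -0.95, adjusted p = 1.5e-05 in Apoe-/- and -0.91, adjusted p = 2.8e-05 in DKO). Myc fell in DKO (log2 fold change -1.01, adjusted p = 0.0107), while E2f6, a repressor of E2F sites (log2 fold change 0.54, adjusted p = 0.000175), and Cdkn1c (p57, log2 fold change 0.59, adjusted p = 0.00535) rose in Apoe-/-.

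Targets of p53 moved in both directions at oxLDL 60. Of 26 tested, 3 were called higher (11.5%, against 7.13% of all genes) and 3 lower (11.5%, against 6.78%) in Apoe-/-. In DKO 2 were called higher (7.69%, against 4.87%) and 3 lower (11.5%, against 7.31%). Fas, a death receptor, fell from 12.4 ± 3.1 to 4.23 ± 1.1 RPKM (SD, n = 3) in Apoe-/- and from 9.55 ± 2.7 to 3.41 ± 0.40 RPKM in DKO. Btg2 (log2 fold change -1.14, adjusted p = 0.000288 in Apoe-/- and -1.22, adjusted p = 0.000169 in DKO) and Sesn1 (log2 fold change -1.16, adjusted p = 0.00421 in Apoe-/- and -0.98, adjusted p = 0.0145 in DKO) fell as well. Sesn2, a stress-induced sestrin, rose in both genotypes (log2 fold change 0.81, adjusted p = 4.9e-05 in Apoe-/- and 0.50, adjusted p = 0.0039 in DKO), as did the polo-like kinase gene Plk2 (log2 fold change 1.24, adjusted p = 0.00209 in Apoe-/- and 1.25, adjusted p = 0.00237 in DKO), and Plk3 rose in Apoe-/- (log2 fold change 1.01, adjusted p = 0.0256). Cdkn1a, the best known p53 target and a member of the module, fell in DKO and did not pass in Apoe-/-, as given above.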

How the data were processed

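RNA was sequenced from 18 cultures of mouse bone marrow-derived macrophages, 3 in each of 6 groups of genotype and oxLDL. The authors deposited 1 table of RPKM values for 18668 genes, and no counts were used here. The submitters' processing notes name STAR and mm10, while the study's methods describe reads taken back from BAM files and a workflow with STAR and Subread. The gene annotation is not given in the sources used here, and the labels list several sequencing platforms without saying which library each produced. RPKM scales a library by its own total, so a change in a few abundant genes shifts all others, and the median ratio rescaling tests for that. Of the row names, 24 are symbols that a spreadsheet had turned into dates, and none was a member.

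The scale was log2(RPKM + 0.1), which shrinks the fold change of a scarce gene. The 12838 genes that reached 0.1 RPKM in 3 or more libraries were fitted with limma 3.58.1 (R 4.3.3) as 6 group means over 18 libraries, by eBayes with its trend option, with Benjamini-Hochberg adjustment over all genes in each of 11 comparisons. A gene was called at an adjusted p under 0.05 and a fold change of at least 1.4, the limits that the study's methods name. The scripts were tested on simulated data. Depth was estimated from the steps of low RPKM values with exon lengths of GENCODE M21, at about 39.7 to 54.2 M reads per library, which covers counting error only. Figures were drawn with matplotlib 3.10.9 under Python 3.11.15.

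The 44 members, the related gene lists and the cell type markers were chosen with earlier results of these data known. Values in every library are given for the markers of dividing cells, the G1 cyclins, the transcription factors, the inhibitors and 2 or 3 members of each other role, and other members by range or test. Replicates are described as biological, but no label names an animal. Libraries of the same genotype and number deviated together in all 18 such pairs (r from 0.183 to 0.695, median 0.41), so that equal numbers of 1 genotype were treated as 1 block. Those of different number had a median r of -0.35. Deviations from a group mean cancel within the group, so this negative value follows from the positive one and adds nothing. Whether a number stands for an animal, for sex or for another factor was not tested. Across genotypes the same number had a median r of -0.17 and pairs nothing, although the block fit between genotypes joined equal numbers. Alternatives were other pseudocounts and filters, no limit on the fold change, rescaling, fits on the compared groups alone, the replicate block, a robust fit, each library left out, and Xist-positive libraries left out or given a term. Combinations of the block, rescaling, the Xist term and no fold limit were added after the data were seen.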

Additional observations from a re-analysis of the deposited data

How the results depend on the processing

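Of 240 recomputed counts of called members, 192 stayed within 1.5 times the reported count and 48 did not. The 240 include fits with no limit on the fold change, where an adjusted p under 0.05 alone makes a call. Of the 78 with 1 library left out, 64 stayed and 14 did not. Leaving out 1 library at a time gave 0 to 2 called members for oxLDL 10 in Apoe-/-, 1 to 4 for oxLDL 60 against untreated and 1 to 4 against oxLDL 10 in Apoe-/-, 1 to 3 and 1 to 6 for the same in DKO, and 0 to 3 between untreated genotypes. The 4 came without untreated replicate 2, the 6 without DKO oxLDL 10 replicate 3, and the 3 between genotypes without DKO untreated replicate 3. Counts with 1 library left out are not set against all genes, so a general gain or loss of calls cannot be told apart. A pseudocount of 1 left 1 call at oxLDL 60 in DKO (8.47% of all genes were called). Without Xist-positive libraries 1 member was called for oxLDL 10 in Apoe-/- (3.33% of all genes) and 6 between untreated genotypes (2.40%). A term for Xist gave 3 there (1.34%). Of 1545 recomputed values for single members, 1290 kept direction and side of the threshold, 26 lost a call, 228 gained one and 1 changed sign, that of Mki67 for oxLDL 60 in DKO, 0.0092 without oxLDL 60 replicate 3 and -0.22 without replicate 2. The gains include those made only by dropping the limit on the fold change. Among the 444 values with 1 library left out, 412 were kept, 17 lost a call, 14 gained one and 1 changed sign. Where the cause is not plain from fewer libraries or genes it was not tested. The RPKM table holds no counts, and the lowest member, Ccnd2, rested on an estimated 466 to 900 reads per library.

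With the replicate block, Ccne1 joined the calls for oxLDL 60 against oxLDL 10 in DKO (log2 fold change -0.54, 4 called members against 3), and it changed no other call. Without the limit on the fold change the counts were 8, 6 and 10 for oxLDL 10, oxLDL 60 and oxLDL 60 against oxLDL 10 in Apoe-/- (7.04%, 30.2% and 13.5% of all genes). For the same in DKO they were 0, 15 and 19 (3.97%, 25.9% and 15.6%), and between untreated genotypes 2 (0.397%). In the same order, with the block they were 17, 12 and 14 in Apoe-/- (16.4%, 39.7% and 22% of all genes) and 5, 27 and 33 in DKO (9.28%, 35.7% and 25.6%). Between untreated genotypes the block, which there pairs nothing, gave 7 (1.87%). With rescaling they were 8, 11 and 15 in Apoe-/- (8.02%, 34% and 18.2%), the 11 being 2 higher and 9 lower, against 3 and 3 without it. In DKO they were then 2, 16 and 18 (5.55%, 29.2% and 16.3%), and between genotypes 1 at each of oxLDL 10 and oxLDL 60 (0.109% and 0.203%). A term for Xist gave 15, 12 and 15 in Apoe-/- (12.7%, 36.4% and 19.1%) and 4, 25 and 32 in DKO (6.99%, 32.4% and 22.7%). Between genotypes, untreated, at oxLDL 10 and at oxLDL 60, it gave 17, 3 and 2 (7.17%, 1.61% and 0.584%).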
